A study of Mus musculus with 14 samples.

Results

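The circadian clock genes Clock, Per1, Per2, Per3, Cry1, Cry2, Nr1d1, Nr1d2, Bhlhe40 and Dbp were examined for the positions of H3K27ac sites in fibroblasts. Acetylation of lysine 27 on histone H3 (H3K27ac) marks active promoters and enhancers. The members were taken by name, and the sites of a gene were those that overlapped its annotated gene body or the 20 kb beyond either end. All 10 genes were found in the annotation. Their windows held 93 of the 122228 sites in the list.

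The cells were immortalised mouse embryo fibroblasts (iMEF), from a clone called NG3. In every group exon 4 of the endogenous Ash2l alleles had been deleted through a tamoxifen-inducible Cre-ER, and the cells lived on a lentiviral FKBP-ASH2L fusion. ASH2L is a core subunit of the COMPASS/KMT2 enzymes that methylate lysine 4 of histone H3, and the small molecule dTAG-13 brings about degradation of the tagged protein. Exposure to dTAG lasted 16 h, 8 h, 4 h, 2 h or 30 min, and each of these 5 times and the untreated control gave 2 of the 12 H3K27ac libraries. Input chromatin was sequenced in 1 library of control cells and in 1 of cells after 16 h. The data analysed here were a list of positions joined over these samples, with no count, score or sample for any site. The depth behind a site was therefore unknown, no value below has a replicate error, and no time points were compared. Values are given beside the same measure over the 21755 protein-coding genes on chromosomes 1 to 19 and X, as description without a test. A width in the list can be that of a peak in 1 sample or of peaks joined over samples, and it is not a signal level.

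In the mammalian clock, the activators CLOCK and BMAL1 bind E-boxes and switch on the genes for their own repressors. PER and CRY proteins gather over the day and inhibit CLOCK-BMAL1, and the nuclear receptors REV-ERBα and REV-ERBβ, encoded by Nr1d1 and Nr1d2, form a further loop by repressing Bmal1 through ROR elements. DEC1, encoded by Bhlhe40, competes for E-boxes. DBP is an output factor that acts through D-boxes and passes the rhythm on to other genes. Fibroblasts carry this clock in a cell-autonomous form.

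The short sequences at the members' 5′ ends show what lies under, or between, the sites. All are from GRCm38.p6 (mm10), are written 5′ to 3′ on the strand of the gene, and have the clock motifs in capitals. Positions are counted from the annotated outermost 5′ end of the gene, which is 0, and are negative upstream. The motifs were searched on both strands. The E-box was CACGTG, the E′-box CACGTT, the D-box TTATGTAA or TTACGTAA and the ROR element ANTAGGTCA or ANTGGGTCA. A match is a stretch of letters and not a measured binding site. The first 4 sequences are shown because their E-boxes lie inside H3K27ac sites next to the 5′ end.

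Nr1d1 upstream (chr11:98775667-98775715, minus strand, -382 to -334): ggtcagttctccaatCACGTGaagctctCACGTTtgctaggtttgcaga
Cry1 upstream (chr10:85185094-85185148, minus strand, -84 to -30): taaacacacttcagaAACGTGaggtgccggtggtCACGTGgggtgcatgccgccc
Per2 start (chr1:91459299-91459464, minus strand, -140 to 25): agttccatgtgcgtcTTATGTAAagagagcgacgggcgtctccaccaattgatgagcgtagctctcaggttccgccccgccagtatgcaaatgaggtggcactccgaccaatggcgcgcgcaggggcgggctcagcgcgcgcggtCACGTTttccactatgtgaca
Bhlhe40 upstream (chr6:108660161-108660392, plus strand, -468 to -237): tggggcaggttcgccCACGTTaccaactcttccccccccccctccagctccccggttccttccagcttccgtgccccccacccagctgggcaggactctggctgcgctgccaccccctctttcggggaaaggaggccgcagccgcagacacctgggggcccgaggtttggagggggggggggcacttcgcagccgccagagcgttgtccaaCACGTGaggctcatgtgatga

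In Nr1d1 an E-box at -367 and an E′-box at -354 stand 7 bases apart, both inside a site of 2153 bp that ran from -2278 to -126. In Cry1 an E′-box at -69 and an E-box at -50 lay inside a site of 1616 bp that ran across the 5′ end. In Per2 the E′-box at 5 lay in the first bases of a site of 3974 bp, whereas the D-box at -125 lay in the gap before it. In Bhlhe40 the E′-box at -453 and the E-box at -257 lay inside a site of 3806 bp.

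The next 4 sequences are shown because their motifs lie just upstream of the 5′ end but in the gaps outside the sites.

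Per1 upstream (chr11:69094868-69095087, plus strand, -349 to -130): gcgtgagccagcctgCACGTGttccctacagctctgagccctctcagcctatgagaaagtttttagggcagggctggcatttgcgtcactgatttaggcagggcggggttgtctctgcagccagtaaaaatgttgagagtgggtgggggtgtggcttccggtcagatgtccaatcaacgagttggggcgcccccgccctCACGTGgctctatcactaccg
Cry2 upstream (chr2:92434215-92434250, minus strand, -207 to -172): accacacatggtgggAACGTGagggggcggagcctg
Per3 upstream (chr4:151044801-151044885, minus strand, -220 to -136): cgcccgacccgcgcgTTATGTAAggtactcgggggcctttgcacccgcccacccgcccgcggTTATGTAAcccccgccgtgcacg
Dbp upstream (chr7:45704837-45704875, plus strand, -251 to -213): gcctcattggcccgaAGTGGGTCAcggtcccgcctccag

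Per1 had E-boxes at -334 and -150, and Cry2 an E′-box at -192. Per3 had D-boxes at -205 and -158, and Dbp a ROR element at -236. None of these bases was inside a site, although sites lay close on the downstream side in all 4 genes.

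H3K27ac sites were present at the 5′ end of every member, in one of 2 arrangements. In Clock, Per3, Cry1, Cry2, Nr1d1 and Bhlhe40 the 5′ end lay inside a site. That was 6 of 10 genes, compared to 36.5% of all protein-coding genes. Of the 11908 genes with a site at an own start site (middle within 1 kb), 7828 had the 5′ end inside a site. In Per1, Per2, Nr1d2 and Dbp the 5′ end lay in a gap of less than 1 kb between a pair of sites, which was 4 of 10 genes compared to 8.16% of all. Among the 11908 genes with a site at an own start site, 1771 had the 5′ end in such a gap. The gap measured 494 bp in Per1, 231 bp in Per2, 375 bp in Nr1d2 and 443 bp in Dbp. The downstream site of such a pair began close to the 5′ end, at 34 in Per1, at 1 in Per2, at 49 in Nr1d2 and at 69 in Dbp. Per2 thus missed being counted with the first 6 genes by a base. In Nr1d1 and Cry2 the 5′ end was inside the downstream site by very little, since the sites began at -1 and -16, and a gap of 124 bp in Nr1d1 and of 230 bp in Cry2 lay just before them.

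**Figure D1:**
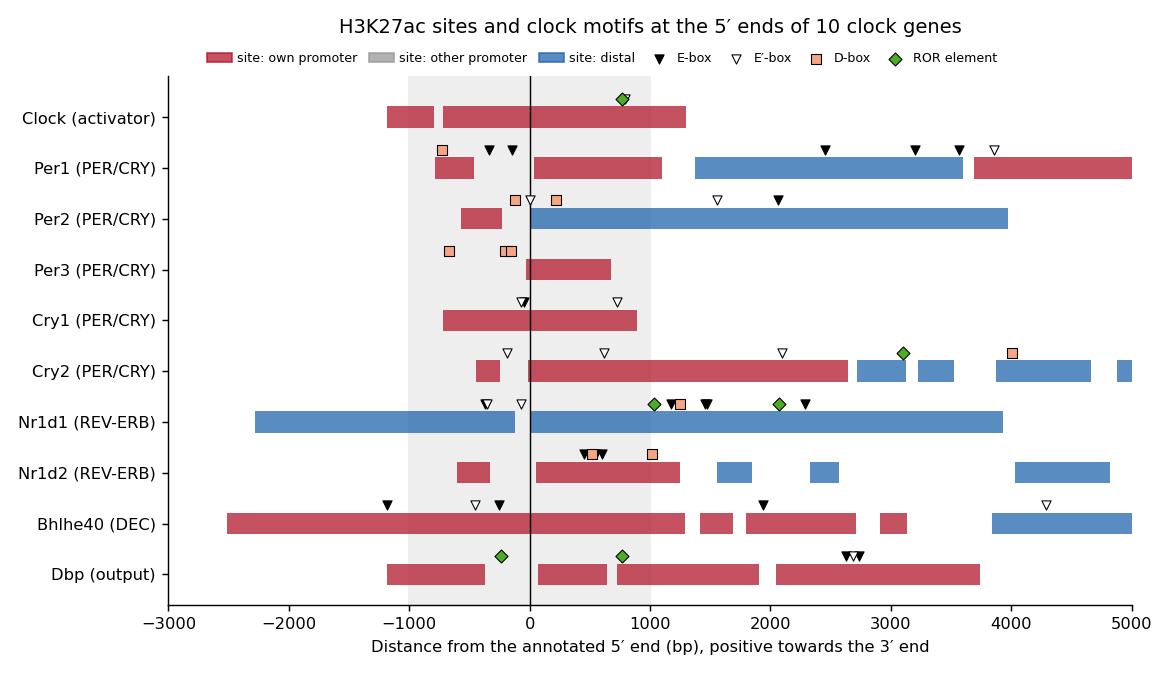
H3K27ac sites (bars) from -3000 to 5000 bp around the annotated 5′ ends of the 10 clock genes (x axis in bp, one row per gene with its role), coloured by whether the middle of the site was within 1 kb of a start site of the same gene (own promoter) or beyond 1 kb of all start sites (distal). Symbols above the bars are motif matches, shown for the grey 1 kb on either side of the 5′ end and, beyond it, only where they lie in a site. The 5′ ends of Per1, Per2, Nr1d2 and Dbp fall between bars, and in Per2 and Nr1d1 a blue bar of 3974 or 3933 bp starts at the 5′ end.

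Promoter cover, the percentage of the 2 kb centred on the 5′ end that lay in sites, had a median of 70.2% over the 10 genes and ranged from 35.3% to 100%. The median was 16.5% over all protein-coding genes and 62.4% over the 11908 genes that had a site at an own start site. Bhlhe40 stood highest at 100%, followed by Clock at 96.1%, Nr1d1 at 93.8%, Cry1 at 80.8% and Dbp at 73.5%. Per2 at 67.0%, Per1 at 64.7%, Nr1d2 at 61.3% and Cry2 at 60.8% lay within a few percentage points of each other. Per3 was the lowest at 35.3%. Among all protein-coding genes, these values placed Bhlhe40 at percentile 98.7, Clock at 96.6 and Per3 at 55.6. Sites with the middle within 1 kb of an own start site were present in 9 of 10 genes, compared to 54.7% of all. The exception was Nr1d1, whose sites at the 5′ end were so wide that their middles lay 1202 and 1965 bp away from the nearest start site.

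The cover was uneven around the 5′ end. Over the 10 genes, the median was 48.3% in the upstream kb and 98.4% in the downstream kb. The downstream value was the higher in 9 of 10 genes, compared to 40.1% of all protein-coding genes. Among the 9 members with a site at an own start site it was higher in 8, compared to 72.3% of all genes with such a site. The largest differences were in Cry2, with 21.6% upstream and 100% downstream, and in Nr1d2 with 27.4% and 95.2%, Per2 with 34.0% and 100%, Per3 with 2.80% and 67.7%, and Per1 with 32.8% and 96.7%. Clock with 92.2% and 100%, Nr1d1 with 87.6% and 100% and Cry1 with 72.3% and 89.2% were covered on both sides. Bhlhe40 was fully covered on both. Dbp lay between these, with 62.6% and 84.5%. In Clock, Bhlhe40 and Dbp, sites in the upstream kb also lay near a start site of another gene. The middles of these sites were within 1 kb of a start of Gm7467, 0610040F04Rik and Car11, respectively.

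**Figure D2:**
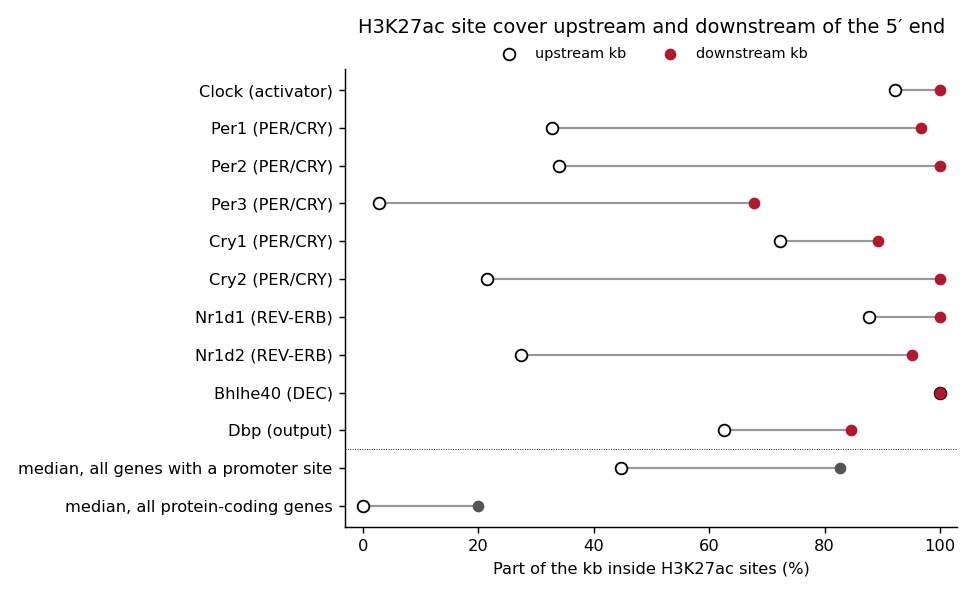
Percentage of the kb upstream (open circles) and of the kb downstream (filled circles) of the annotated 5′ end that lay in H3K27ac sites, for the 10 clock genes and, below the dotted line, as medians over all genes with a promoter site and over all protein-coding genes. The filled circle is to the right in 9 genes, and in Bhlhe40 the circles coincide at 100%.

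The sequence around the 5′ end was CpG-rich in 8 of 10 genes, compared to 44.8% of all protein-coding genes, with CpG-rich meaning 50% or more GC and 0.6 or more of the CpGs that base composition predicts (the observed to expected ratio) in the central 1 kb. The ratio was highest in Cry1 at 1.01 and Per2 at 1.00. Nr1d1 at 0.438 and Bhlhe40 at 0.578 were below the limit. The 2 genes without a CpG-rich 5′ end thus had 93.8% and 100% of the promoter window in sites, and Per3, with a ratio of 0.801, had the least.

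Sites that lay less than 1 kb apart were joined to measure how far the acetylated stretch at each 5′ end reached. The stretch was longest in Bhlhe40, where 7 sites spanned 11080 bp, more than the 6297 bp of the gene itself. In Cry2 it comprised 11 sites over 9901 bp, in Per1 6 sites over 8504 bp and in Nr1d1 2 sites over 6210 bp. Dbp had 4 sites over 4925 bp, Per2 2 sites over 4545 bp, Nr1d2 4 sites over 3168 bp and Clock 2 sites over 2489 bp. Cry1 with 1616 bp and Per3 with 706 bp had 1 site each. The median over all protein-coding genes was 415 bp. Cry1 and Per3 therefore had compact promoter sites, whereas in Bhlhe40, Cry2 and Per1 the sites followed the gene from its 5′ end inwards.

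Distal sites were those with the middle more than 1 kb from every annotated start site of any gene. The study also used 1 kb to set enhancers apart from promoters, but excluded any overlap with that window and required further marks, so that the sites counted here are not its enhancers. Every member had at least 1, compared to 59.3% of all protein-coding genes. Of the 11908 genes with a site at an own start site, 9415 had a distal site. The member windows held 55 distal sites in all. A further 20 sites were at own promoters and 18 at promoters of other genes. Windows differ in length, and distal sites were therefore also counted per 100 kb of window. Nr1d1 had 13 distal sites, or 27.4 per 100 kb, Per1 had 10 or 18.3, and Cry2 had 10 or 14.2. Bhlhe40 followed with 4 or 8.64, Nr1d2 with 5 or 6.66 and Clock with 5 or 3.71. Cry1 had 3 or 3.21, Per3 had 2 or 2.47, Per2 had 2 or 2.40, and Dbp had 1 or 2.22. The median of 5.18 per 100 kb compared to 1.90 over all protein-coding genes. Nr1d1 stood at percentile 98.2, Per1 at 95.1 and Cry2 at 92.0, whereas Dbp stood at 54.0. This order depended on counting closely spaced sites singly. With sites less than 1 kb apart merged, Nr1d1 had 5 or 10.5 per 100 kb (percentile 98.3), Per1 had 3 or 5.48 (percentile 88.5) and Cry2 had 2 or 2.84 (percentile 72.1), while Clock kept 5 or 3.71 (percentile 77.9). A merged stretch was placed by its own middle, so the stretches across the 5′ ends of Cry2 and Per2 counted as distal.

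**Figure D3:**
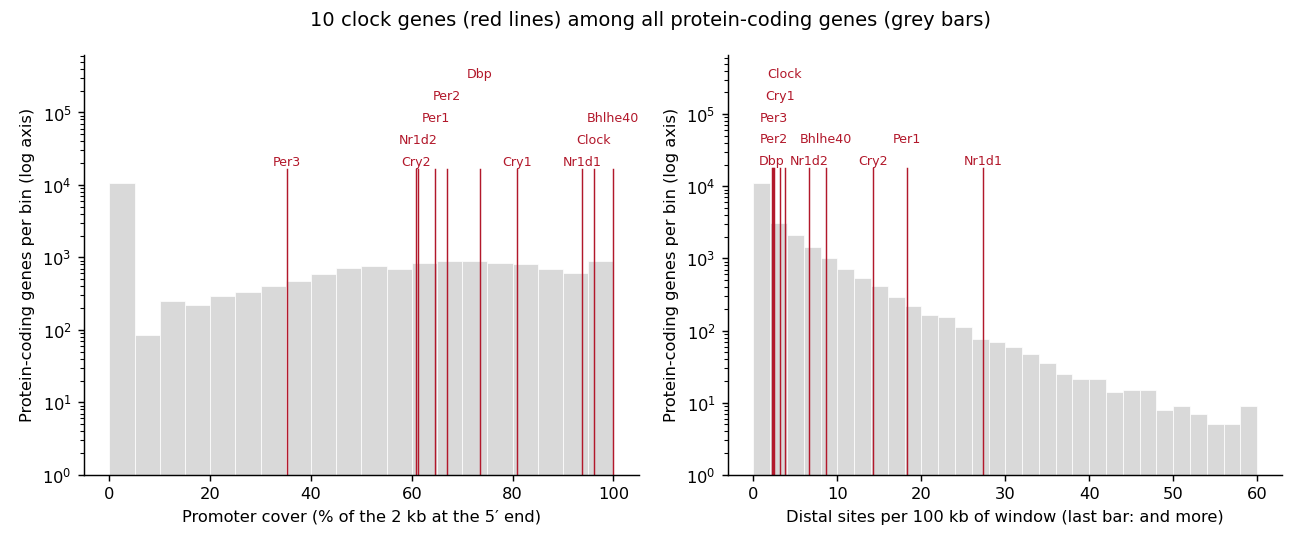
Promoter cover (left, % of the 2 kb at the 5′ end) and distal sites per 100 kb of window (right) of all protein-coding genes as grey bars on a log axis, with the 10 clock genes as labelled red lines. Cover spreads from 35.3% in Per3 to 100% in Bhlhe40, and in distal sites Nr1d1, Per1 and Cry2 stand apart to the right at 27.4, 18.3 and 14.2 per 100 kb.

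Some of these distal sites are wide sites that have an edge near a start site and their middle beyond 1 kb from it. When a site was called distal only if its nearest edge was over 1 kb from every start site, which is closer to the study's rule, 51 of 55 were left, and every member still had at least 1, compared to 58.0% of all genes. Nr1d1 then had 11, Per1 had 9 and Per2 had 1, and the other 7 genes kept their number. In Dbp the only distal site began 19827 bp beyond the 3′ end, at the far edge of the window, and overlapped Sult2b1. With a flank of 10 kb Dbp had 0. The 1 distal site of Per2 was 204 bp wide and lay in an intron from 22891 to 23094. It and the sites of 200 bp in the Clock, Cry1 and Cry2 windows were at or near the narrowest width in the list, 200 bp.

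By role, the activator Clock had 96.1% promoter cover and 3.71 distal sites per 100 kb. The 8 repressors had a median cover of 65.8%, from 35.3% to 100%, and a median of 7.65 distal sites per 100 kb. The output gene Dbp had 73.5% and 2.22 per 100 kb. Activator and output are 1 gene each and both lie inside the range of the repressors in promoter cover. Among the repressors, the 5 PER/CRY genes had a median cover of 64.7% and a median of 3.21 distal sites per 100 kb, below that of Clock. Pooled over their windows the density was 7.05, to which Per1 and Cry2 contributed most. The REV-ERB genes had medians of 77.5% and 17.0, and the DEC gene Bhlhe40 100% and 8.64. Paralogues differed within each group. Per1 had 10 distal sites against 2 each in Per2 and Per3, Cry2 had 10 against 3 in Cry1, and Nr1d1 had 13 against 5 in Nr1d2. With sites less than 1 kb apart merged, Per1 had 3 against 2 each in Per2 and Per3, Cry2 and Cry1 had 2 each, and Nr1d1 had 5 against 3 in Nr1d2. These counts include the stretches across the 5′ ends of Cry2 and Per2, which have their middle beyond 1 kb from every start site. The counts of paralogues thus lay closer together once closely spaced sites were merged. In the CRY genes, Cry1 had the higher promoter cover (80.8% against 60.8%) and Cry2 the longer stretch (9901 against 1616 bp). With no counts, these differences cannot be set against a replicate spread.

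**Figure D4:**
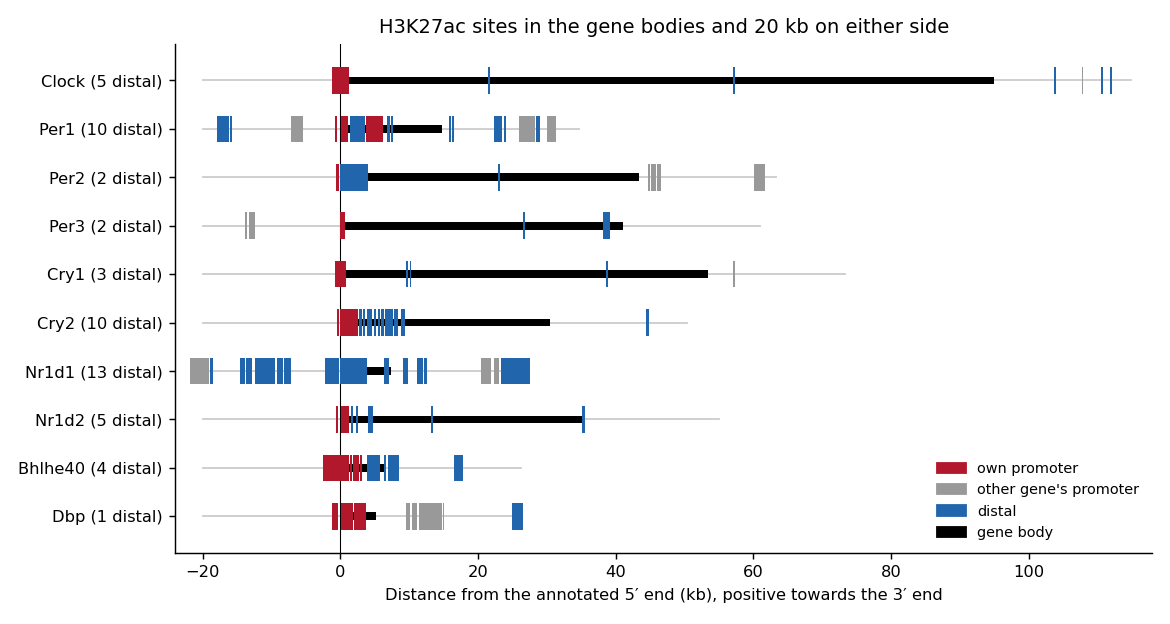
H3K27ac sites in the window of each clock gene, with distance from the annotated 5′ end in kb on the x axis, the gene body as a black bar and 20 kb on either side as a grey line. Sites under 250 bp are drawn 250 bp wide. Blue distal sites lie mostly in the body of Cry2 (9 of 10), in the flanks and body of Per1 (7 and 3) and on both sides of Nr1d1, and are thinly spread in Clock, Per2, Per3 and Cry1.

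Of the 55 distal sites, 9 lay upstream of the gene, 28 in the gene body and 18 downstream, and 16 touched intron only. Nr1d1 held 7 of the 9 upstream sites. From -14535 to -7180 it had 5 sites, the widest of 2952 bp, and at its 5′ end sites of 2153 and 3933 bp lay 124 bp apart. Altogether 48.6% of the Nr1d1 window lay in sites, at percentile 99.6 of all protein-coding genes. Per1 had 30.5%, Bhlhe40 22.4%, Dbp 20.9% and Cry2 11.7%, compared to a median of 3.19% over all genes. Clock at 2.97% and Cry1 at 2.86% were below that median in spite of their promoter cover, since both are long genes with few sites in the body. The median over genes with a site at an own start site was 6.11%. The shares of the windows count sites at promoters of other genes as well. There were 3 of these in the Nr1d1 and Per1 windows, 4 in that of Dbp and 0 in those of Bhlhe40 and Cry2. In Clock, 2 intron sites of 309 and 272 bp were all that lay in the gene, which is 94925 bp long, beyond the promoter site that ended at 1301.

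In Per1 the annotation has further start sites inside the gene. The protein-coding start at 3731 lay in a site of 2582 bp and had a cover of 95.5%, and those at 4935 and 4941 had 100%, compared to 64.7% at the outermost 5′ end. Between the outermost and the internal starts, a site of 2229 bp ran from 1373 to 3601 in the intron. In Dbp the start sites at 181 and 196 lay inside the site that began at 69, and in Nr1d2 the one at 116 lay inside the site that began at 49. With any start site of a protein-coding transcript allowed, 9 of 10 genes had a start inside a site, compared to 46.6% of all protein-coding genes, and Per2 was left out.

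Neighbouring genes shared several windows, and 22 of the 55 distal sites overlapped another gene. In the Nr1d1 window, 5 of 13 distal sites overlapped Thra, which encodes a thyroid hormone receptor and overlaps the 3′ end of Nr1d1, and the widest of all 93 sites, 4240 bp, lay there. All 10 distal sites of Cry2 overlapped another gene, 9 of them D930015M05Rik and 1 Mapk8ip1. Both distal sites of Per3 overlapped Camta1. The 3 distal sites of Clock that lay downstream overlapped Tmem165. In Per1, 1 distal site overlapped Hes7, and the 1 distal site of Dbp overlapped Sult2b1. Sites at the promoters of other genes were those of Vamp2, 9130213A22Rik and Aloxe3 beside Per1, Hes6 and Ilkap beside Per2, Vamp3 beside Per3 and Mterf2 beside Cry1. Apc-ps1 lay beside Clock, Msl1 and Thra beside Nr1d1, and Rpl18 and Sphk2 beside Dbp. Sites counted as own promoter that also lay near the start of another gene are given above for Clock, Bhlhe40 and Dbp. The list does not tie a site to a gene. By contrast, the distal sites of Cry1, Nr1d2, Per2 and Bhlhe40 overlapped no other gene.

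Sites of the clock windows were wider than most. Their median width was 686 bp compared to 401 bp over the list, and 13 of 93 were wider than 2000 bp (14.0%) compared to 4.33% over the list. Own promoter sites had a median of 862.5 bp, compared to 678 bp over all promoter sites, and distal sites 463 bp compared to 369 bp. Promoter sites, at 38 of 93 or 40.9%, were a larger part than the 18.7% over the list, with the windows drawn around genes. Within the windows, the median width was 1096 bp in Bhlhe40 and 904 bp in Nr1d1, and 290.5 bp in Clock, 290 bp in Nr1d2 and 296 bp in Cry1. The median GC content of the 93 sites was 52.3%, compared to 48.8% over the list.

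Motifs within 1 kb of the 5′ end were counted irrespective of sites. An E-box was present in 5 of 10 genes, Per1, Cry1, Nr1d1, Nr1d2 and Bhlhe40, compared to 27.7% of all protein-coding genes. An E′-box was present in 6 of 10, compared to 28.8%, and either of them in 8 of 10, compared to 47.8%. The genes without either were Per3 and Dbp. The D-box was present in 4 of 10, Per1, Per2, Per3 and Nr1d2, compared to 7.10%. The ROR element was present in Clock and Dbp, 2 of 10 compared to 8.87%. The cyclic AMP response element TGACGTCA was present in 0 of 10, compared to 4.05%, and the CArG box of serum response factor in Per3 only, 1 of 10 compared to 9.38%. E- or E′-boxes with 6 to 7 bases between them, the spacing known from clock-controlled promoters, occurred in Nr1d1 and in 0.0965% of all genes, which is 21 genes. Of those 21 genes, 15 had H3K27ac sites within 1 kb of the 5′ end, compared to 52.0% of all protein-coding genes.

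Within 1 kb of the 5′ ends there were 17 E- or E′-boxes in all, 13 inside sites and 4 outside. Of the bases searched, 73.3% lay in sites. The 4 outside were those of Per1 at -334 and -150, of Cry2 at -192 and of Nr1d1 at -72, each in a gap directly upstream of the 5′ end. For the D-box, 3 of 7 lay inside sites, and the 4 outside were the 3 of Per3 and 1 of Per2. No E- or E′-box within 1 kb of the 5′ end of Clock, Cry1, Nr1d2, Bhlhe40 or Per2 was outside a site.

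Sites of several members also held these motifs inside the gene bodies. Beyond 1 kb from the 5′ end only the sites were searched, so matches outside sites were not counted there. The following sequences are shown because 3 E- or E′-boxes fell in 1 site of Dbp, of Nr1d2 and of Per1, and because the sites across the 5′ ends of Nr1d1 and Clock also held ROR elements. Single sites of Per2, Cry1, Bhlhe40 and Nr1d1 held 3 such boxes as well.

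Dbp E-box at 2624 (chr7:45707697-45707732, plus strand): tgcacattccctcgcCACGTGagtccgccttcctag
Dbp E′-box at 2686 (chr7:45707759-45707794, plus strand): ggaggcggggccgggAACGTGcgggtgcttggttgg
Dbp E-box at 2737 (chr7:45707810-45707845, plus strand): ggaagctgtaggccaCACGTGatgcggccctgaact
Nr1d2 E-box at 449 (chr14:18238658-18238693, minus strand): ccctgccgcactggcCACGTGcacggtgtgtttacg
Nr1d2 E-box at 552 (chr14:18238555-18238590, minus strand): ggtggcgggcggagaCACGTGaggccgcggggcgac
Nr1d2 E-box at 597 (chr14:18238510-18238545, minus strand): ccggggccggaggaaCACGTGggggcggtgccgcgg
Per1 E-box at 2457 (chr11:69097659-69097694, plus strand): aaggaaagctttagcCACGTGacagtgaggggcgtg
Per1 E-box at 3203 (chr11:69098405-69098440, plus strand): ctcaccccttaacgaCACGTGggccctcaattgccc
Per1 E-box at 3566 (chr11:69098768-69098803, plus strand): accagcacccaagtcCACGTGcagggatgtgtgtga
Nr1d1 E-boxes at 1454 and 1469 (chr11:98773859-98773894, minus strand): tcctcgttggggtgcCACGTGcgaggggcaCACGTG
Nr1d1 ROR element at 1033 (chr11:98774277-98774315, minus strand): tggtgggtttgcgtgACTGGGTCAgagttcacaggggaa
Nr1d1 ROR element at 2070 (chr11:98773240-98773278, minus strand): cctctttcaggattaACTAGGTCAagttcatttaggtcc
Clock ROR element at 763 (chr5:76304006-76304044, minus strand): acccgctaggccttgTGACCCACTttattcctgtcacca
Clock E′-box at 793 (chr5:76303979-76304014, minus strand): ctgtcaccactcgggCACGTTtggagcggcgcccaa

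The 3 boxes of Dbp lay in a site of 1693 bp from 2044 to 3736, and Dbp had no E- or E′-box within 1 kb of the 5′ end. The 3 E-boxes of Nr1d2 lay in the site of 1198 bp that began at 49, together with a D-box at 517. Those of Per1 lay in the site of 2229 bp that ended upstream of the internal start at 3731. The site of 3933 bp in Nr1d1 held 4 E-boxes, a D-box at 1246 and ROR elements at 1033 and 2070. In Clock, the ROR element and the E′-box lay in the site of 2022 bp across its 5′ end.

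Over all 93 sites, 53 E- or E′-boxes were found in 28 sites, of which 8 were own promoter sites, 5 promoter sites of other genes and 15 distal sites. The window of Nr1d1 held 15 of the 53, those of Per1 and Bhlhe40 9 each, Per2, Cry1 and Dbp 4 each, Nr1d2 3, Per3 and Cry2 2 each and Clock 1. Of the 53, 7 lay in promoter sites of other genes, beside Nr1d1, Per1, Per2 and Dbp. In the Nr1d1 window, the distal site of 4240 bp over Thra held 2 E-boxes and 1 E′-box. The E-box occurred 0.303 times per kb of site, compared to 0.176 over the list, and the E′-box 0.271 times compared to 0.165. The D-box occurred 0.0758 times per kb compared to 0.0250, on 7 matches. For the ROR element the values were 0.0649 and 0.0560 per kb, on 6 matches. The cyclic AMP response element occurred 0.0433 times per kb compared to 0.0122, on 4 matches, which lay at 1985 in Per1 and at -10617 in Nr1d1 and in promoter sites of other genes beside Per3 and Dbp. For the CArG box the values were 0.0325 and 0.0511, on 3 matches. The spaced E-boxes of Nr1d1 were 1 of 37 such places in all sites of the list. The sites also differed from the list in width and GC content, as given above, and the part of either in these densities was not tested.

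When only the middle 200 bp of each site was searched, which sets sites of all widths on the same length, few motifs were found. The E-box was in 5 of 93 sites compared to 3.24% of the list, and the E′-box in 4 of 93 compared to 3.04%. The D-box, the ROR element, the cyclic AMP response element, the CArG box and the spaced E-boxes were in 0 of 93, compared to 0.439%, 1.11%, 0.196%, 0.927% and 0.00491% of the list.

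The label of the cells was checked against marker genes. All 8 fibroblast genes (Col1a1, Col1a2, Fn1, Vim, Thy1, Pdgfrb, Prrx1 and Lox) had between 76.7% and 100% promoter cover, whereas 11 genes of epithelium, blood, liver, neurons, endothelium and embryonic stem cells had 0%. Of all protein-coding genes, 52.0% had a site within 1 kb of the 5′ end, so a cover of 0% was frequent. By the middle of a site, 6 of the 8 and 1 of the 11, Cdh5, had a site at an own start site, compared to 54.7% of all. Distal sites in the windows of the 11 ranged from 0, as in Alb and Epcam, to 9 in Pecam1 and 15 in Cdh1. Over 19 further clock genes the median promoter cover was 71.0%, compared to 16.5% over all protein-coding genes. It was 62.4% over the 11908 genes with a site at an own start site. Of the 19, 11 had the 5′ end inside a site, compared to 36.5% of all genes and to 7828 of those 11908. By number, the most distal sites among the 19 were in Rora with 39, Npas2 with 24 and Arntl, which encodes BMAL1, with 21. The window of Rora is 774461 bp long and gave 5.04 distal sites per 100 kb, compared to 14.3 in Arntl and 11.5 in Npas2. Arntl, Npas2 and Clock are activators, and Clock had the lowest density of these 3 at 3.71, with closely spaced sites counted singly. Densities after merging are not given for the further clock genes.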

How the data were processed

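H3K27ac ChIP-seq in iMEF comprised 12 H3K27ac and 2 input libraries. The authors used Trim Galore for trimming, BWA for alignment to mm10, Samtools for filtering and Picard to merge replicates, and MACS gave narrow peaks. Version, threshold and the way peaks were joined are not given in the sources used here. The deposited values were other than counts, namely chromosome, start and end in bp, with starts counted from 0. Depth and replicate error were therefore unknown, and no test was run. Genes and start sites came from GENCODE M21, and sequence from RefSeq GRCm38.p6. The outermost 5′ end of a gene was its start. Cover was computed per base, and a site was assigned by its middle. Alternatives comprised flanks of 10 and 50 kb, other promoter windows, other start sites, assignment by edge, omission of the narrowest 25% of sites and joining of sites less than 1 kb apart. All members were named, and of the further clock genes those without a promoter site are not reported here. The members, gene lists and motifs were chosen with earlier results of these data known. On simulated data, cover and distal counts were recovered in 500 of 500 cases and planted motifs in 200 of 200. Versions were pysam 0.24.0, scipy 1.17.1, pandas 2.3.3, matplotlib 3.10.9, numpy 2.4.6 and Python 3.11.15.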

Additional observations from a re-analysis of the deposited data

How the results depend on the processing

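The list holds positions only, so depth could not limit or weight any value, and a site seen at 1 time point counts like a site seen at all. The number of members with the 5′ end inside a site rose from 6 to 10 when the 5′ end was allowed within 250 bp of a site, and to 10 when sites less than 1 kb apart were merged. The rise on merging was fixed beforehand, since the 5′ ends outside sites lay in gaps of less than 1 kb. The median promoter cover was 74.3% with 0.5 kb on either side, 56.9% with 2 kb, 77.1% at the protein-coding start site with the highest cover and 85.1% with sites merged. The sites in the windows numbered 165 with a flank of 50 kb and 44 with sites merged, and the distal sites 89 with 50 kb, 33 beyond 3 kb from start sites and 26 with sites merged. The 26 include the stretches across the 5′ ends of Cry2 and Per2, which were placed by their middle. The other alternatives left these counts within 1.5 times and the median cover within its 95% Wilson interval over the bases of the window, among them omission of the narrowest 25% of sites. Neighbouring bases are not independent, so this interval served only as a tolerance and is no error of the cover. For the members taken one by one, cover moved beyond such an interval in 29 of 50 values and the number of distal sites by over 1.5 times in 28 of 80. No paired analysis was possible because no site carries a value for a replicate.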
